A study of Mus musculus with 4 samples.

Results

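The proteasome genes of the cardiac endothelium, the cells that line the vessels of the heart, were followed in mice given an intraperitoneal injection of LPS and compared with mice given saline. The genes were all those whose platform symbol begins with Psm, a letter from a to g and a digit, which gave 45 genes of the 11138 measured. They comprised 8 alpha and 7 constitutive beta subunits of the core, 3 inducible beta subunits and 6 ATPases of the regulatory particle. A further 12 Psmd genes were grouped by symbol as non-ATPase genes of that particle, although Psmd10 among them encodes an assembly factor. There were also 4 activator genes and 3 assembly chaperones. The remaining 2 matched by symbol alone. Psmb5-ps is a pseudogene in RefSeq, and Psmc3ip encodes a partner of meiotic recombinases and no proteasome subunit. RefSeq holds 7 further protein-coding genes of this symbol pattern that were not analysed here, namely Psmb11, Psmd5, Psmd11, Psme2, Psme3ip1, Psmf1 and Psmg4.

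Amplified RNA of LPS-injected and saline-injected mice was hybridised together on oligonucleotide arrays with 2 colours. There were 4 arrays, 2 at 4 h and 2 at 24 h after injection, and LPS RNA carried Cy5 on the first and Cy3 on the second array of each time. The strain, age and sex of the mice, the LPS dose, how many animals were pooled and the way the endothelium was isolated are not stated in the sources used, and neither is whether the times shared their saline RNA. The labels name no animals or extracts of its own for the dye-reversed array. A pair of arrays therefore counted as 1 replicate, which leaves no test of LPS against saline over replicates. limma was run only with the arrays as separate samples, whose spread is that of arrays and dyes. Values are log2 ratios of LPS over saline, written as the mean ± SD of 2 arrays, which covers array and dye error only. A gene was called higher or lower where its ratio was 2-fold or more (1 log2 unit) in the same direction on both arrays.

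No label says which way the deposited ratios run. The labels' dyes make LPS over saline likely, with the table read as Cy5 over Cy3 and the LPS-in-Cy3 arrays turned in sign. The deposited arrays of a time correlated at only -0.06 at both times over all spots, and at -0.37 at 4 h and -0.50 at 24 h over oligonucleotides whose duplicate spots were close on both arrays. Under the opposite reading, Cy3 over Cy5, every higher would become lower. If its arrays had all been turned alike before deposit, which the listing of LPS RNA as second channel of all arrays leaves possible, the genes called below would lie in opposite directions on their arrays, as under a dye effect. The table holds ratios and no levels, so whether endothelial markers were present could not be checked, and more cells of a type and more RNA per cell cannot be told apart. For the marker counts that follow, 2.25% of all genes were higher and 0.997% lower at 4 h, and 3.48% and 3.52% at 24 h. Of 9 measured endothelial markers, 1 was higher at 4 h, Cldn5 at 1.29 ± 0.10. The 2 lower at 4 h were Kdr at -1.89 ± 0.75 and Eng at -1.87 ± 0.84. The same 2 genes were higher at 24 h, at 2.21 ± 0.48 and 3.91 ± 0.85. Of 10 leukocyte markers 0 were called at 4 h and 1, Coro1a at 2.73 ± 1.70, at 24 h. Of 9 neutrophil markers 0 were called at 4 h, and 3 at 24 h, namely Ngp, lower at -1.62 ± 0.82, and S100a8 and S100a9, higher at 2.59 ± 1.17 and 1.55 ± 0.08. None of 10 cardiomyocyte and 9 fibroblast markers was called at 4 h. At 24 h Ryr2 was lower among the former and Vim and Mgp were higher among the latter.

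The proteasome is a barrel-shaped protease that degrades proteins tagged with ubiquitin. Its core stacks rings of alpha subunits, which gate the entry, around rings of beta subunits, of which those encoded by Psmb5, Psmb6 and Psmb7 cut the chain. The regulatory particle binds the tag, removes it and unfolds the substrate with a ring of ATPases. Under interferon, Psmb8, Psmb9 and Psmb10 replace the constitutive catalytic subunits to form the immunoproteasome, and the PA28 cap of Psme1 and Psme2 products opens the core, which favours peptides fit for MHC class I. LPS elicits interferons, and in endothelium NF-kB, the transcription factor behind adhesion molecules and chemokines, is released when the proteasome degrades its inhibitor.

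Stretches before the gene start are shown first, since the inducible subunits are known as interferon-responsive. They come from RefSeq, build GRCm38.p6, which held a window of 250 bases before to 50 after the start for 36 of the 45 genes. Motifs searched on both strands were the interferon-stimulated response element, read as GAAA repeated after a gap of 2 bases, the gamma-activated site TTCNNNGAA, the antioxidant response element TGACNNNGC, CCAAT and the NF-kB site, and capitals below mark a match to any of them. The sites were allowed to overlap. The stretches belong to Psme2b, the highest gene at 4 h, to Psmd8, the highest at 24 h, and to inducible genes that carried a match. Whether the oligonucleotides of Psme2b read its own transcript or that of Psme2 was not tested. The window of Psme2b may therefore not be that of the transcript measured. The window of Psmb10, the inducible subunit called at 24 h, held no match to any of the motifs and is not printed.
Psme1, chr14:55578493-55578522, plus strand, around an interferon-stimulated response element 10 to 19 bases after the start: cgagctgtgcTTTCGCTTTCccttcccgct
Psmb8, chr17:34197945-34198194, plus strand, with a gamma-activated site: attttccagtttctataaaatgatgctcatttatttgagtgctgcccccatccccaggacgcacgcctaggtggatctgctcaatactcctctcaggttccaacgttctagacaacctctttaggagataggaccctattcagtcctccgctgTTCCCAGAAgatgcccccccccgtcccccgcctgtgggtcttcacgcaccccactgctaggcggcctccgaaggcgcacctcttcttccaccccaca
Psmb9, chr17:34187331-34187580, minus strand, with CCAAT on the other strand: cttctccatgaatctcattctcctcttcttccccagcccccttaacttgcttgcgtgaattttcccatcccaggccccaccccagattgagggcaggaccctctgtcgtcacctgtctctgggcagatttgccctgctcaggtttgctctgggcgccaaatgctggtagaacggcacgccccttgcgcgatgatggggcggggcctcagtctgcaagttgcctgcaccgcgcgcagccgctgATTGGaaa
Psme2b, chr11:48946411-48946660, minus strand, with no match: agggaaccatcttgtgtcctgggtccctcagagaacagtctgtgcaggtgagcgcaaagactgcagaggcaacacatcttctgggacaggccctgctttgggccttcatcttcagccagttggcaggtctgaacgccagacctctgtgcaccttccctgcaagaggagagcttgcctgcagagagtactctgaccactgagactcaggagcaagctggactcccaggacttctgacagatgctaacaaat
Psmd8, chr7:29180674-29180923, minus strand, with no match: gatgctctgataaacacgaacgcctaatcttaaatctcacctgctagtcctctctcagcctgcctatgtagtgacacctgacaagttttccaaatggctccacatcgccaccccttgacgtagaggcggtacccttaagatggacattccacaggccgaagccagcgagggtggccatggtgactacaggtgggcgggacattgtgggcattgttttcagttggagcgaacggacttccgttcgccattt

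Over the 36 windows, the interferon-stimulated response element occurred in 4 genes (11.1%), against 3.99% of the 27025 genes with a window. These were Psmb3, Psmd4, Psmd9 and Psme1, none of which was called at either time. The gamma-activated site occurred in 3 genes (8.33% against 9.55%), Psmb8, Psmd2 and Psmg1, of which Psmd2 was called higher at 4 h. The antioxidant response element, the site of the proteasome regulator NFE2L1, occurred in 6 genes (16.7% against 14.0%), CCAAT in 14 (38.9% against 41.1%) and the NF-kB site in 5 (13.9% against 9.55%). Among the 8807 genes of the array with a window, the shares of the 5 motifs were 3.85%, 8.53%, 16.3%, 42.8% and 11.9%, in the order given. The windows of Psmb9 and Tap1, which lie head to head on chromosome 17, shared 275 bases. A match is only a description of these letters, and a missing match says nothing of the factor.

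The first question was how the proteasome genes stood after 4 h of LPS. At 4 h 5 of 45 genes (11.1%) were higher, where 2.25% of all genes were, and 0 were lower, where 0.997% of all genes were. The higher genes were Psme2b, Psmc2, Psma3, Psmd2 and Psmd7. The ratio was above 0 on both arrays in 21 genes (46.7%), against 24.3% of all genes, and below 0 on both in 4, against 25.6%. The median over the genes was 0.28, and -0.02 over all genes. On the arrays taken alone the median was 0.16 with LPS in Cy5 and 0.44 with LPS in Cy3. Psma6 and Psmb4 lay 2-fold from 0 in opposite directions on the arrays, which is 4.44% of the genes against 1.42% of all. With the LPS-in-Cy5 array alone 11 genes were 2-fold higher and 3 lower, where 11.4% of all genes were higher and 9.37% lower. With the LPS-in-Cy3 array alone 12 were higher and 0 lower, where 7% and 5.69% of all genes were.

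At 24 h 8 of 45 genes (17.8%) were higher, against 3.48% of all genes, and 0 were lower, against 3.52%. They were Psmd8, Psmb10, Psma6, Psmd14, Psmb1, Psme4, Psme2b and Psma1. Both arrays lay above 0 in 26 genes (57.8%), against 26.1% of all, and below 0 in 6, against 26.1%. The median was 0.65, and -0.02 over all genes, with 0.88 on the LPS-in-Cy5 and 0.38 on the LPS-in-Cy3 array. Psmc2 alone was 2-fold in opposite directions, as 3.69% of all genes were. With the LPS-in-Cy5 array alone 20 genes were higher and 1 lower, where 13.0% of all genes were higher and 17.6% lower. With the LPS-in-Cy3 array alone 10 were higher and 1 lower, where 15.6% and 13.5% of all genes were. All 4 arrays lay above 0 in 14 genes (31.1%), against 8% of all genes. Psme2b was the 1 gene called higher at both times, which 0.485% of all genes were.

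**Figure D1:**
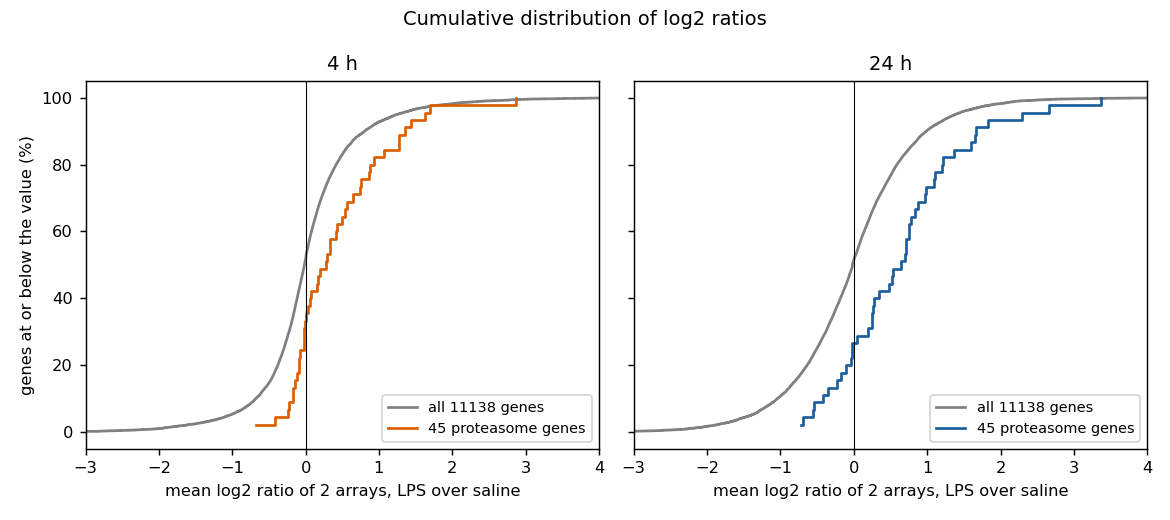
Cumulative share of genes (vertical axis, percent) by the mean log2 ratio of 2 arrays, LPS over saline (horizontal axis), at 4 h (left) and 24 h (right), for the 45 proteasome genes (coloured) and all 11138 genes (grey). The proteasome curve lies to the right of the grey curve over most of its course, with medians of 0.28 at 4 h and 0.65 at 24 h against -0.02 for all genes. The few genes of the grey curve beyond the axis limits are not drawn.

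The arrays were also taken as separate samples in limma, across all genes. None of the 45 genes passed a Benjamini-Hochberg adjusted p under 0.05, and none of all genes did. The lowest adjusted p of limma among them was 0.445 at 4 h and 0.391 at 24 h. Unadjusted, 6 genes had a limma p under 0.05 at 4 h, where 4.26% of all genes did, and 9 at 24 h, where 10.1% did. Each of these genes was in the higher direction.

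**Figure D2:**
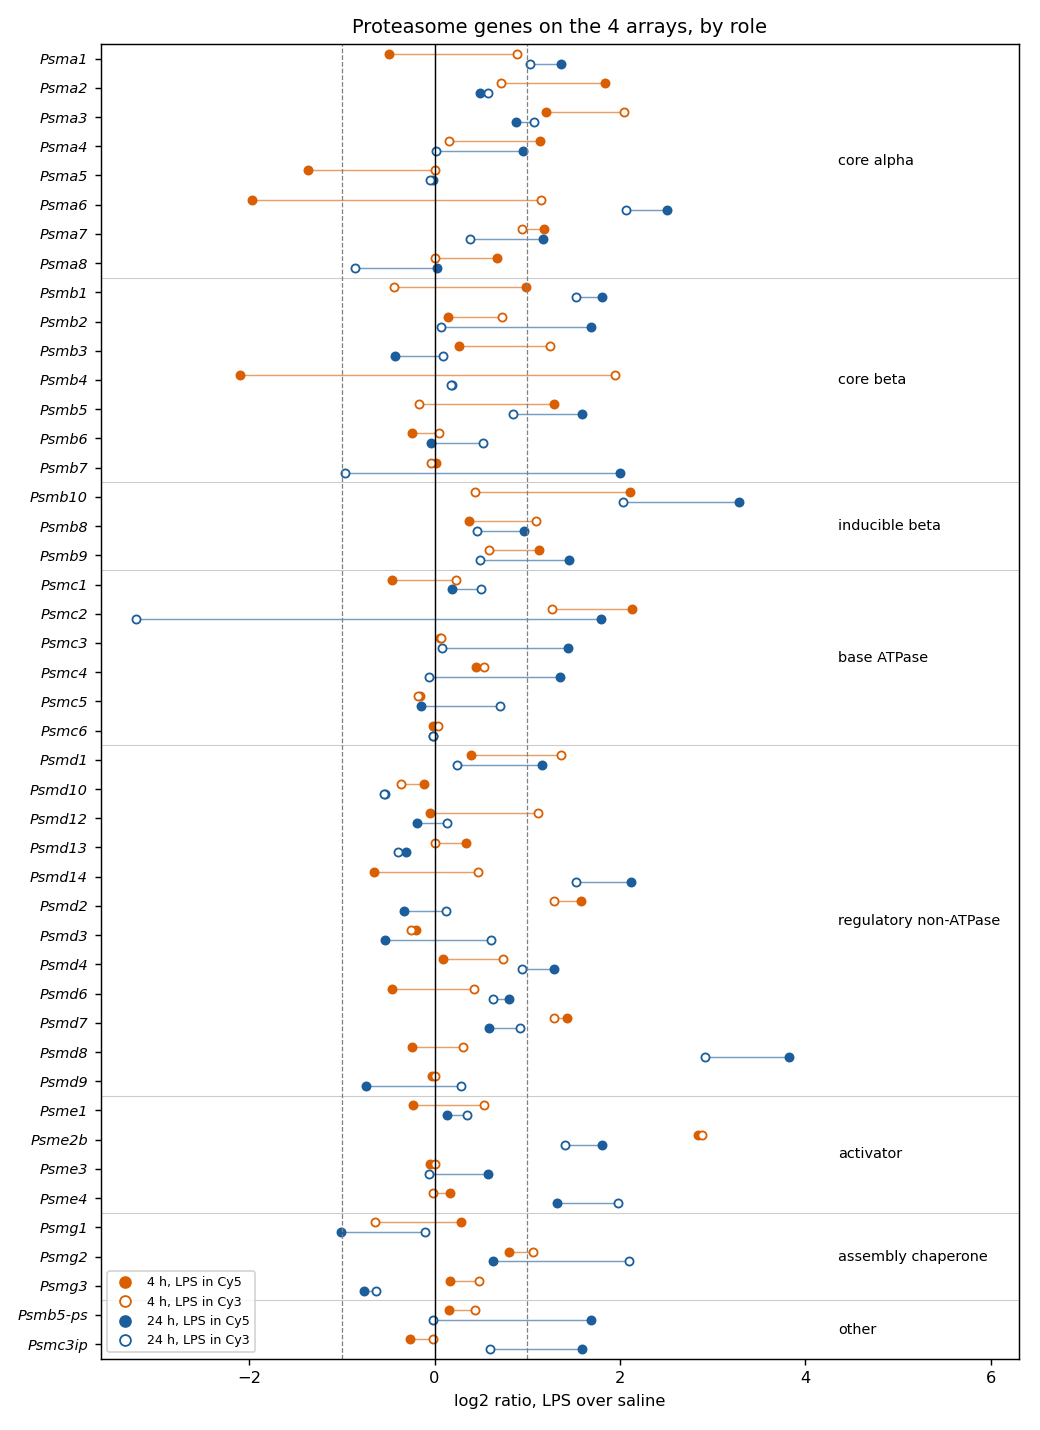
Log2 ratio, LPS over saline (horizontal axis), of each of the 45 genes (rows, grouped by role) at 4 h (orange) and 24 h (blue). Filled points are arrays with LPS in Cy5, open points arrays with LPS in Cy3, a line joins the arrays of a time, and dashed lines mark 2-fold. Psme2b stands apart at 4 h and Psmd8 and Psmb10 at 24 h, and lines that cross 0, such as those of Psmb4 and Psma6 at 4 h and Psmc2 at 24 h, mark arrays that disagreed.

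The caps that open the core held the highest gene of 4 h. Psme2b is annotated in RefSeq with the synonym Psme2-like, and Psme2 encodes the beta subunit of PA28. Psme2b read 2.84 and 2.89 on the arrays of 4 h, a mean of 2.87 ± 0.03 or 7.29-fold, and 1.80 and 1.40 at 24 h, a mean of 1.60 ± 0.28 or 3.04-fold. All 4 arrays were above 2-fold, and both arrays of 4 h lay above both of 24 h. The gene had a pair of different oligonucleotides, and their sizes disagreed. The first gave 4.78 and 3.86 at 4 h and 2.70 and 2.05 at 24 h, while the second gave 0.91 and 1.91 at 4 h and 0.91 and 0.75 at 24 h. The first was thus 4.32 ± 0.65 and the second 1.41 ± 0.71 at 4 h, both above 0, with the higher mean at 4 h in each. No oligonucleotide was annotated to Psme2, and the sequences of these 2 were not used here, so whether one of them was designed for Psme2, or binds its transcript as well, was not tested. The ratio of Psme2b is open to that limit at both times.

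Psme1, the alpha subunit of PA28, was not called at either time. It read -0.23 and 0.53 at 4 h, a mean of 0.15 ± 0.54, and 0.14 and 0.35 at 24 h, a mean of 0.24 ± 0.15. The 4 h arrays straddled 0. Psme3, the nuclear PA28 gamma, was near 0 at 4 h at -0.03 ± 0.04 and at 0.26 ± 0.45 at 24 h. Its spots on the LPS-in-Cy3 array of each time were deposited at or near a ratio of 1, so the small SD of 4 h is no measure of precision. Psme4, which encodes the large single-chain activator PA200, was near 0 at 4 h, with 0.17 and -0.01. It was called higher at 24 h, with 1.32 and 1.98, a mean of 1.65 ± 0.47 or 3.14-fold. One of its 4 spots of 24 h, at 0.49, stayed under 2-fold.

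Among the inducible catalytic subunits, Psmb10, which replaces Psmb7, gave the largest ratio. It read 2.10 and 0.44 at 4 h, a mean of 1.27 ± 1.18 that was not called, and 3.29 and 2.04 at 24 h, a mean of 2.66 ± 0.88 or 6.33-fold. The times overlapped on the arrays. As for Psme2b, the oligonucleotides of the gene disagreed. At 24 h the first gave 5.43 and 3.38 and the second 1.14 and 0.69. One spot of the second was at or near a ratio of 1 on both arrays of 24 h, at 0.0078 and -0.063, while its duplicate read 2.28 and 1.45. At 4 h the first gave 1.22 and 0.86, and the second 2.99 and 0.01, where the spots of the LPS-in-Cy3 array were deposited at or near a ratio of 1.

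Psmb9 and Psmb8 lie beside the peptide transporter genes in the class II region of the MHC. Psmb9, which replaces Psmb6, read 1.13 and 0.59 at 4 h, a mean of 0.86 ± 0.38, and 1.45 and 0.49 at 24 h, a mean of 0.97 ± 0.68. Psmb8, which replaces Psmb5, read 0.37 and 1.10 at 4 h, a mean of 0.74 ± 0.51, and 0.97 and 0.46 at 24 h, a mean of 0.71 ± 0.36. Neither was called at 2-fold, but all arrays and all spots of both genes lay above 0 at both times. The spots ran from 0.31 to 1.55 at 4 h and from 0.28 to 1.53 at 24 h for Psmb9, and from 0.34 to 1.68 and from 0.24 to 1.01 for Psmb8. Leukocytes also carry immunoproteasomes, and the leukocyte and neutrophil markers had medians of 0.10 and -0.13 at 4 h and of 0.18 and -0.13 at 24 h, with the called markers given above. Their part in these ratios was not tested.

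The constitutive partners were set beside them on the same arrays. Psmb6 read -0.24 and 0.05 at 4 h and -0.03 and 0.52 at 24 h. Its ratio lay below that of Psmb9 by 0.95 ± 0.58 at 4 h, on both arrays, and by 0.73 ± 1.08 at 24 h, on 1 array. Psmb7 read 0.01 and -0.04 at 4 h and 2.00 and -0.97 at 24 h, where the arrays pointed in opposite directions. Its duplicate spots disagreed at 24 h, at -0.06 and 4.07 with LPS in Cy5 and at -1.87 and -0.06 with LPS in Cy3. At 4 h its spots of the LPS-in-Cy5 array were deposited at or near a ratio of 1. Psmb10 stood above Psmb7 on all 4 arrays, by 1.29 ± 1.14 at 4 h and 2.14 ± 1.22 at 24 h. The second oligonucleotide of Psmb10 alone, at 1.14, lay below Psmb7 on the LPS-in-Cy5 array of 24 h. Psmb5 read 1.29 and -0.17 at 4 h and 1.59 and 0.85 at 24 h, a mean of 1.22 ± 0.53 that missed the call on 1 array. The difference of Psmb8 from Psmb5 was 0.18 ± 1.54 at 4 h and -0.51 ± 0.16 at 24 h. The inducible subunit thus had the higher ratio on both arrays of a time in the Psmb9 pair at 4 h. The same held in the Psmb10 pair at both times, but at 24 h not with the second oligonucleotide of Psmb10 alone. In the Psmb8 pair the inducible subunit had the lower ratio at 24 h. The ratios of Psmb8 and Psmb5 straddled each other at 4 h, as did those of Psmb9 and Psmb6 at 24 h.

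**Figure D3:**
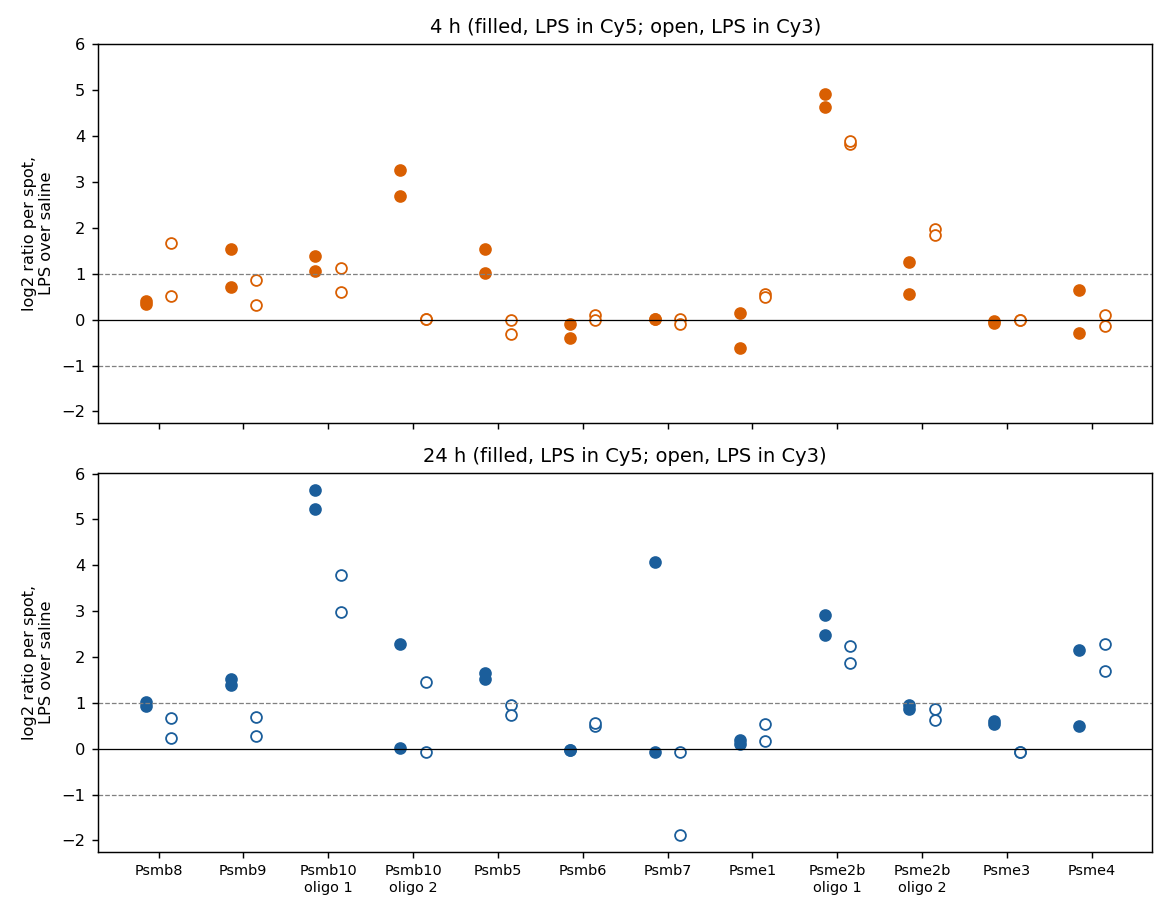
Log2 ratio of each spot, LPS over saline (vertical axis), for the inducible and constitutive catalytic subunits and the activators (columns; 2 columns where a gene had 2 oligonucleotides) at 4 h (top) and 24 h (bottom), with LPS in Cy5 (filled) or Cy3 (open) and dashed lines at 2-fold. The first oligonucleotides of Psme2b and Psmb10 stand above the second at 4 h and at 24 h, respectively, and all spots of Psmb8 and Psmb9 lie above 0.

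The alpha subunits form the outer rings of the core. Psma3 was called at 4 h, with 1.21 and 2.05, a mean of 1.63 ± 0.59 or 3.09-fold, and every spot was above 2-fold. At 24 h it read 0.88 and 1.07, a mean of 0.98 ± 0.13, with 1 array just under the threshold. Psma7 at 1.18 and 0.95 and Psma2 at 1.83 and 0.72 missed the call of 4 h on 1 array each. These genes were above 0 on all arrays of both times.

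Psma6 and Psma1 were called at 24 h. Psma6 read 2.51 and 2.07 at 24 h, a mean of 2.29 ± 0.31 or 4.88-fold, with every spot above 2-fold. At 4 h its arrays stood at -1.97 and 1.14, so no 4 h value can be given with confidence. Psma1 read 1.37 and 1.03 at 24 h, a mean of 1.20 ± 0.24, and -0.49 and 0.89 at 4 h. Its ratio of 24 h lay close to that of Psma3, which missed the call, and its times did not meet the criterion for a difference given below. Of the other alpha genes, Psma4 was at 0.64 ± 0.69 and 0.48 ± 0.67, Psma5 at -0.68 ± 0.96 and -0.03 ± 0.02, and Psma8, a testis-specific alpha subunit, at 0.34 ± 0.48 and -0.42 ± 0.62 at 4 h and 24 h. Over the 8 alpha genes the median was 0.49 at 4 h and 0.66 at 24 h.

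Of the 7 constitutive beta subunits, Psmb1, a structural subunit without catalytic activity, was called at 24 h alone. It read 1.80 and 1.53, a mean of 1.66 ± 0.20 or 3.17-fold, with every spot above 2-fold, after 0.98 and -0.43 at 4 h. The 24 h arrays both lay above those of 4 h. Psmb4 gave the widest gap at 4 h, with -2.10 and 1.95, and was at 0.19 ± 0.01 at 24 h. Psmb2 was at 0.43 ± 0.41 and 0.88 ± 1.15, and Psmb3 at 0.76 ± 0.69 and -0.17 ± 0.37 at 4 h and 24 h. The median of the 7 genes was 0.28 at 4 h and 0.52 at 24 h.

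The ATPases, which form the unfolding ring at the base of the regulatory particle, contained 1 called gene. Psmc2 read 2.13 and 1.26 at 4 h, a mean of 1.70 ± 0.61. Its duplicate spots disagreed, at 0.25 and 4.01 on the LPS-in-Cy5 array and at -0.38 and 2.90 on the LPS-in-Cy3 array, so the call rested on the same spot position of both arrays. At 24 h Psmc2 read 1.79 and -3.22. The other 5 ATPase genes ranged from -0.17 for Psmc5 to 0.49 for Psmc4 at 4 h and from -0.02 for Psmc6 to 0.76 for Psmc3 at 24 h, and none was called. The ATPase median was 0.04 at 4 h and 0.31 at 24 h.

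The non-ATPase genes of the regulatory particle held the highest gene of 24 h. Psmd8, a lid subunit, read 3.83 and 2.92 at 24 h, a mean of 3.37 ± 0.64 or 10.4-fold, and its 4 spots ran from 2.89 to 4.10. It ranked 22 of 11138 genes at 24 h. At 4 h it read -0.25 and 0.31, a mean of 0.03 ± 0.39. Psmd14, the deubiquitinase of the lid, followed the same order, with 2.12 and 1.52 at 24 h, a mean of 1.82 ± 0.42 or 3.54-fold, and -0.65 and 0.47 at 4 h. Its duplicate spots disagreed on the LPS-in-Cy5 array of 4 h, at -2.49 and 1.19. Every spot of both genes was above 2-fold at 24 h. Sem1, a small lid subunit outside the symbol rule, read 2.00 and 1.56 at 24 h, a mean of 1.78 ± 0.31, after 0.49 and -0.35 at 4 h.

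Psmd2 and Psmd7 were called at 4 h instead. Psmd2, the scaffold of the base that docks ubiquitin carriers, read 1.58 and 1.29 at 4 h, a mean of 1.43 ± 0.21 or 2.70-fold, and -0.33 and 0.12 at 24 h. Psmd7, the lid partner of Psmd14, read 1.43 and 1.28 at 4 h, a mean of 1.36 ± 0.10 or 2.56-fold, and 0.59 and 0.92 at 24 h. Every spot of both genes was above 2-fold at 4 h. The lid partners Psmd7 and Psmd14 were thus called at different times, although 24 h minus 4 h was only -0.60 for Psmd7 and did not meet the criterion for a difference given below.

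The other non-ATPase genes were not called. Psmd4, a ubiquitin receptor, stood at 0.41 ± 0.46 at 4 h and 1.11 ± 0.24 at 24 h, with 1 array of 24 h at 0.94. Psmd1, the other base scaffold, was at 0.88 ± 0.69 and 0.70 ± 0.65, and Psmd6 at -0.02 ± 0.63 and 0.71 ± 0.13. Psmd10, the assembly factor also known as gankyrin, was the 1 non-ATPase gene below 0 on all 4 arrays, at -0.24 ± 0.18 and -0.54 ± 0.01. Psmd3, Psmd9, Psmd12 and Psmd13 ranged from -0.23 to 0.53 at 4 h and from -0.35 to 0.04 at 24 h. The median of the 12 genes was 0.10 at 4 h and 0.37 at 24 h.

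The assembly chaperones guide the alpha ring and showed no call. Psmg2 was above 0 on all 4 arrays, at 0.93 ± 0.18 at 4 h and 1.37 ± 1.04 at 24 h. Its partner Psmg1 was at -0.18 ± 0.66 and -0.55 ± 0.64. Psmg3 averaged 0.33 ± 0.22 and -0.70 ± 0.09, but its oligonucleotides opposed each other at 24 h, at 0.71 ± 0.02 and -2.10 ± 0.20. The spots of the first of these ran from -1.46 to 2.86, so the small SD of the arrays hides a wide spread of spots. The pseudogene Psmb5-ps was at 0.30 ± 0.19 and 0.84 ± 1.21, and Psmc3ip at -0.14 ± 0.18 and 1.10 ± 0.71.

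The next comparison set the ratios of 24 h against those of 4 h. A gene was taken to differ where its arrays of the 2 times did not overlap and its means were at least 1 log2 unit apart. By this criterion 6 genes were higher at 24 h and 3 were lower, where 9.43% of all genes were higher and 10.3% lower, so the shares of 13.3% and 6.67% were near those of all genes. The 6 genes were Psmd8 by 3.34, Psmd14 by 1.91, Psme4 by 1.57, Psmb1 by 1.39, Psmc3ip by 1.24 and Psma6. The 2.70 of Psma6 rests on opposed arrays at 4 h, so the gene lay higher at 24 h by an amount these arrays do not fix. The size of the 1.91 of Psmd14 is likewise not fixed, since its 4 h spots disagreed. The 3 genes were Psmd2 by -1.54, Psme2b by -1.26 and Psmg3 by -1.02. The duplicate spots of Psmd2 disagreed on the LPS-in-Cy5 array of 24 h, at 0.82 and -1.48. The second oligonucleotide of Psme2b alone, at 1.41 at 4 h and 0.83 at 24 h, did not meet the criterion. The oligonucleotides of Psmg3 went opposite ways, the first from 0.34 to 0.71 and the second from 0.32 to -2.10. The split depended on scaling, with 5 higher and 7 lower genes after scale normalization, 6 and 5 after quantile normalization and 8 and 2 without centring. Of all genes 8.62% were higher and 9.85% lower in the first of these, 9.53% and 9.65% in the second and 9.72% and 9.89% in the third. In limma 0 of the 45 genes had an adjusted p under 0.05 for this difference, and 4 had an unadjusted p under 0.05, where 5.73% of all genes did.

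**Figure D4:**
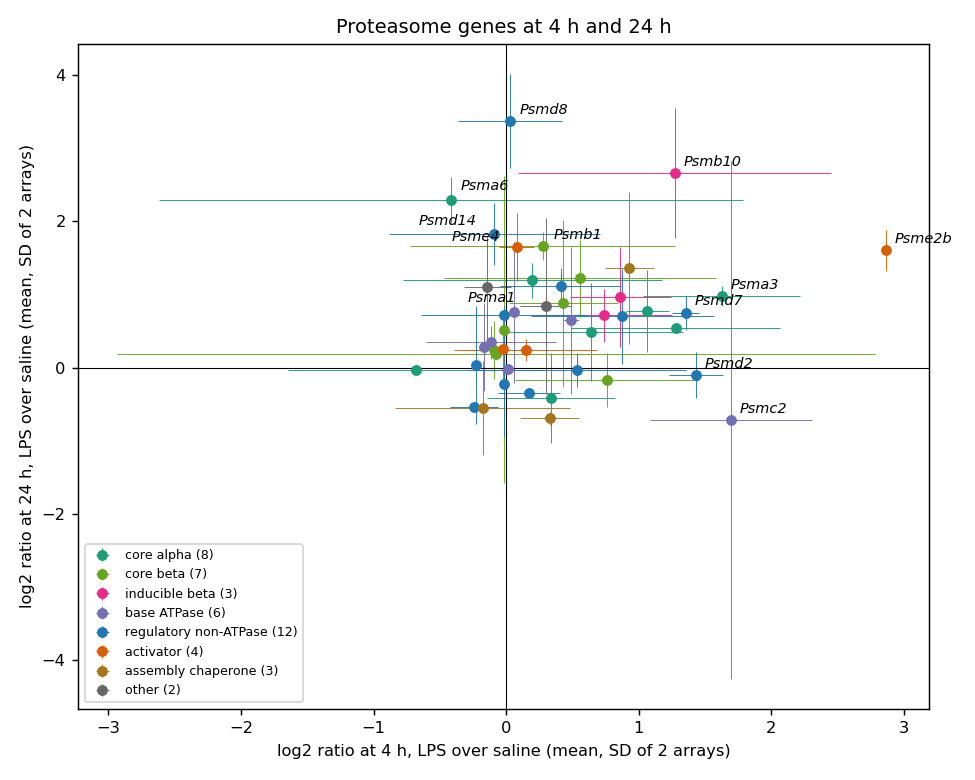
Mean log2 ratio, LPS over saline, at 4 h (horizontal axis) and 24 h (vertical axis) of the 45 genes, coloured by role, with bars of the SD of 2 arrays and names for the genes called at either time. Psmd8 and Psmd14 lie high at 24 h with 4 h means near 0, though the 4 h spots of Psmd14 disagreed. Psma6 lies high at 24 h with a bar of 4 h that crosses 0, Psmd2 lies high at 4 h alone, and Psme2b is high at both times.

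Genes that work with the proteasome were taken from a list of co-factors and regulators, of which 15 of 30 symbols were measured. At 4 h 0 of these 15 were called, where 2.25% of all genes were higher and 0.997% lower, and the median was 0.07. At 24 h 2 (13.3%) were higher and 0 lower, where 3.48% and 3.52% of all genes were, with a median of 0.56 against -0.02 for all genes. They were Sem1, given above, and Uchl5, a deubiquitinase of the regulatory particle, at 2.06 ± 0.93. Nfe2l1, the transcription factor that raises proteasome genes when activity falls, read 3.22 and 0.55 at 4 h and 0.63 and 0.64 at 24 h. All 4 arrays lay above 0, with a call missed at 4 h on 1 array. Vcp, the segregase that hands substrates to the proteasome, was above 0 on all arrays too, at 0.56 ± 0.47 and 1.47 ± 0.87, as was Txnl1, a thioredoxin-like protein bound to the regulatory particle, at 0.64 ± 0.38 and 0.56 ± 0.11. Zfand2a was below 0 on all 4 arrays, at -0.67 ± 0.15 and -0.89 ± 1.05. Pomp, which matures the core and the immunoproteasome, was at 0.01 ± 0.01 and 0.71 ± 0.97.

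Class I peptide presentation, the process the immunoproteasome feeds, had 17 of 23 listed genes measured. At 4 h 4 (23.5%) were higher and 0 lower, where 2.25% and 0.997% of all genes were, with a median of 0.45. At 24 h 1 (5.88%) was higher and 0 lower, where 3.48% and 3.52% of all genes were, with a median of 0.29. The share of 24 h was near that of all genes. The heavy chains H2-D1 at 2.78 ± 0.76, H2-K1 at 2.79 ± 0.46 and H2-Q7 at 3.01 ± 0.43 were called at 4 h, together with Irf1, a transcription factor of the immunoproteasome genes, at 1.96 ± 1.33. The heavy chains H2-T23 at 0.73 ± 0.61 and H2-M3 at 0.45 ± 0.20 were not called at 4 h. H2-D1 alone was called at 24 h, at 1.52 ± 0.69. The peptide transporter genes read otherwise. Tap1, which shares its start region with Psmb9, was at 0.68 ± 0.93 at 4 h and 0.01 ± 0.69 at 24 h, and Tap2 at -0.54 ± 1.23 and -0.89 ± 0.18. The light chain B2m was at -0.76 ± 0.19 and 0.03 ± 0.04. No test was run on these lists.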

How the data were processed

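The deposited table held log2 ratios of 4 arrays with 2 colours, 32448 spots each, with a median near 0 on each array. How background, dyes and spot filters were handled is not given in the sources used, and the table held no intensities, so the number of arrays limits the precision. Between 10.2% and 13.4% of an array's spots had a ratio of 1, taken as a deposited log2 ratio within 1e-06 of 0. The sign of LPS-in-Cy3 arrays was turned, values were averaged over the 2 spots of an oligonucleotide and next over a gene's oligonucleotides, and the median of the 11138 genes was then subtracted from each array. No low-value filter was applied. The platform annotation gave 1 symbol to 24344 spots, several to 98 and none to 8006, and 96 of 96 spots of proteasome genes matched RefSeq (GRCm38.p6). Genes described were every called one, the catalytic pairs and activators, the rest by range. The genes, lists and rules were chosen with earlier results of these data known. limma 3.58.1 in R 4.3.3 was an alternative, and Python 3.11.15 did the rest. limma and the call rule were tested on simulated data with large shifts and a narrower spread than the deposited arrays. Those tests checked the code and say nothing of how the rules perform on these data. Without named animals, limma's p-values cover only the spread between arrays.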

Additional observations from a re-analysis of the deposited data

Results flagged for a closer look

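For 3 of the 45 genes, both arrays of 4 h lay on one side of 0 and both of 24 h on the other, which 12.3% of all genes did. The differences of 24 h minus 4 h were 1.24 for Psmc3ip, -0.52 for Psmd13 and -1.02 for Psmg3. Psmd13 went from 0.17 at 4 h to -0.35 at 24 h, and Psmg3 had oligonucleotides in opposite directions at 24 h. With the arrays as separate samples, limma gave unadjusted p of 0.0973, 0.354 and 0.103 for these differences, in the same order, and adjusted p of 0.804, 0.837 and 0.804. On the LPS-in-Cy3 array of 4 h Psmc3ip read only -0.014, with spots at 0.057 and -0.084. Psmd13 read only 0.0068 there, with spots at 0.098 and -0.084. The side of 0 of these 2 genes at 4 h is therefore not fixed by their spots.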

How the results depend on the processing

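Of 112 recomputed ratios of called genes, 87 moved by less than the SD of the arrays, 22 moved by more and 3 changed sign, all 3 of them with no array turned, namely Psma3 at -0.42 and Psme2b at -0.021 at 4 h and Psme4 at -0.33 at 24 h. Leaving out the first or the second array gave 13 each of the 87. These could not move by the SD, since each of 2 arrays lies nearer than that to their mean, so they say nothing of stability. With no array turned, 2 genes were lower at 4 h and 1 was higher at 24 h, where 0.637% and 1.71% of all genes were. Between the times 2 were higher, where 5.11% of all genes were. The medians were -0.030 and 0.14, as the cancelling of opposed signs brings about. The calls of 4 h and 24 h numbered 9 and 16 at 1.5-fold, 1 and 3 at 3-fold, and 3 and 4 where every spot had to be 2-fold. All were higher but 1 of the 16, where 4.94% and 8.37% of all genes were higher at 1.5-fold, 0.871% and 1.1% at 3-fold and 1.25% and 1.87% by every spot. With close duplicate spots only, fewer genes were measured. Of these, 3 of 21 were higher at 4 h, against 2.46% of all genes, and 6 of 28 at 24 h, against 5.49%. Between the times 2 of 16 were higher and 1 was lower, against 8.73% and 13.3% of all genes. limma called 0, 0 and 0 at 4 h, at 24 h and between the times. On single arrays 12 to 14 genes were called at 4 h, 11 to 21 at 24 h and 14 to 19 between the times, with medians of 0.16 to 0.44 at 4 h and 0.38 to 0.88 at 24 h. The shares of all genes at 4 h and 24 h are given above. Between the times, LPS-in-Cy3 arrays alone gave 7 higher and 7 lower, against 18% and 16.8% of all genes. LPS-in-Cy5 arrays alone gave 15 higher and 4 lower, against 16.4% and 21.9%. The counts stayed within 1.5 times under no centring, quantile or scale normalization, medians over spots and without ratios of 1. Chosen after seeing the data were the single arrays between the times and 3 further settings. Without Psmb5-ps and Psmc3ip, 5, 8 and 8 genes were called at 4 h, at 24 h and between the times. Those of 4 h and 24 h were all higher, against 2.25% and 3.48% of all genes. Between the times 5 were higher and 3 lower, against 9.42% and 10.3%. By oligonucleotide, 5 were higher at 4 h, and 8 were higher and 1, of Psmg3, lower at 24 h. Of the oligonucleotides of all genes 2.36% were higher at 4 h, and 3.57% were higher and 3.64% lower at 24 h. Without genes of 2 oligonucleotides, 4 were called at 4 h and 6 at 24 h, all higher, against 2.25% and 3.47% of all genes. No paired analysis was possible because the labels give no replicate numbers and each time counts as 1 replicate.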

Other observations

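Duplicate spots of the proteasome oligonucleotides correlated at 0.48 and 0.65 on the arrays of 4 h and at 0.60 and 0.72 on those of 24 h (48 oligonucleotides that share the array and print), where all oligonucleotides gave 0.19, 0.28, 0.32 and 0.32. A deposited ratio of 1, within 1e-06 on the log2 scale, made up 5.99% of the spot values of the proteasome genes. The arrays of a time correlated at 0.26 at 4 h and 0.43 at 24 h over the 45 genes, after the sign was turned, and at 0.12 at both times over all genes. The part of spot quality in the shares called was not tested.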
